A study of Mus musculus with 2 samples.

Results

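The 10 genes described here are FGF feedback and ETS target genes: Spry1, Spry2, Spry4, Spred1, Spred2, Dusp4, Dusp6, Etv4, Etv5 and Il17rd. They were chosen by symbol, and each has 1 line in the authors' deposited table of 13916 protein-coding genes, so 10 of 10 were found. The table compares distal with proximal regions of mouse limb-mesenchymal organoids, which are cultured aggregates of embryonic limb bud mesenchyme. Regions were taken from sections by photo-isolation chemistry, in which primers for reverse transcription carry a light-sensitive cage and only lit tissue gives usable cDNA. Both groups came from Slc:ICR mice, an outbred stock, and from the same medium with Fgf8b and Wnt3a for 48 h. The material was 5 organoids from 4 cultures, frozen on day 2. The distal group was 5 barcoded regions pooled into 1 library, and the proximal group was 5 barcoded regions pooled into another. There was no group without Fgf8b, so the comparison is of position within organoids that all received the ligand. Side and library are the same split, so these cannot be told apart. Which region came from which organoid is not given in the sources used here, so regions of a side may share an organoid and the sides may share organoids. With 4 cultures, at least 2 of the 5 regions of a side came from the same culture, so SDs and permutation p-values over regions treat as independent what was partly shared.

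When an FGF binds its receptor, the signal runs through Ras and Raf to the kinase ERK, which phosphorylates ETS-family transcription factors. Among the genes switched on are the signal's own inhibitors, so transcripts of Sprouty, Spred and Dusp genes are widely used as a readout of FGF activity. In the limb bud, FGFs from the apical ectodermal ridge act on the underlying distal mesenchyme, where Dusp6, Spry4, Etv4 and Etv5 are known as ridge-dependent genes.

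The members lie on 8 chromosomes. In GRCm38 with GENCODE M21 annotation, Spry2 lies at chr14:105891947-105896819 on the minus strand. Dusp6 lies at chr10:99263231-99267489 and Spry1 at chr3:37639947-37644598, both on the plus strand. Spry1 exons overlap those of Gm42922 on the other strand, and whether reads were counted by strand is not given in the sources used here, so reads of this pair cannot be told apart. No exon of the other 9 members overlaps an exon of another gene. The 250 bases before the start of Dusp6 and of Spry1 are shown because these 2 genes had the most alike levels over the 10 regions among the members compared. They are from RefSeq, build GRCm38.p6, plus strand, at chr10:99262981-99263230 and chr3:37639697-37639946, and capitals mark GGAA, the core that ETS factors bind, on either strand (TTCC where it lies on the other strand).
Dusp6: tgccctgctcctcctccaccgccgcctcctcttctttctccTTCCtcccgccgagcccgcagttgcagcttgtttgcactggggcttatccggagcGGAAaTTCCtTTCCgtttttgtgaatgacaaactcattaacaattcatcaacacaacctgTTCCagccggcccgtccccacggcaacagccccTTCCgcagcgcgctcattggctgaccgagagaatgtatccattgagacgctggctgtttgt
Spry1: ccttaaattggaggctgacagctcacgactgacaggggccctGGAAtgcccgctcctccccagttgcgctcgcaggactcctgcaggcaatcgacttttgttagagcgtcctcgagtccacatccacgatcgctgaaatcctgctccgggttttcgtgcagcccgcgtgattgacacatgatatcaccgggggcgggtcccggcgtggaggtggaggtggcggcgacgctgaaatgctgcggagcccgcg
The Dusp6 stretch holds 6 such cores and the Spry1 stretch holds 1. Reference windows of 300 bases, from 250 before to 50 after a start, were matched for 7 of 10 members, with 8 windows because Etv5 has a second start. GGAA was present in 7 of these 8 windows, against 96.0% of all 32851 windows, where the median was 3 matches. The longer ETS-site letters CCGGAAG and CAGGAAG, and the AP-1 letters TGANTCA, were searched on both strands and were in 0 of 8 windows. Those letters were in 8.86%, 13.3% and 7.81% of all windows. GGAA is contained in both ETS motifs. A match is a description of letters only. The last bases of the Spred1 window and of the Etv5 window at chr16:22438319-22438618 were not found in a GENCODE M21 transcript of the gene. These windows may therefore not lie at an annotated start.

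The authors' deposited table gives 1 mean, 1 log2 change and 1 test for each gene. Because its mean is an average of whole counts divided by a size factor for each region, the counts of 9 members in the 10 regions could be worked back from it. Size factors, which measure relative depth, ran from 0.329 to 0.832 in distal regions and from 1.50 to 2.42 in proximal ones. Their sum was 3.30 times larger on the proximal side, so a distal count weighs more and is known less precisely. Regions are numbered 1 to 5 within a side from the deepest to the shallowest, and these numbers are not the barcode numbers of the labels. Normalized counts below are counts divided by the size factor, and SDs are over 5 regions.

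In the authors' deposited table, no member had an adjusted p under 0.05. The count was 0 of 10 members, against 0.977% of all genes tested (0.395% in the distal direction and 0.582% in the proximal one). It stayed at 0 of 10 at adjusted thresholds of 0.1 and 0.01, which 1.16% and 0.64% of all genes passed. At an unadjusted p under 0.05 there was 1 member, Spry4, higher in distal, against 6.07% of all genes in either direction with 2.56% in the distal and 3.51% in the proximal direction. The deposited log2 change was above 0 for 9 of 10 members, with a median of 0.35, against 54.5% and a median of 0.07 for all genes. Dusp4 and Etv4 had means under 1, and genes with means under 0.5 had a median of 1.19 in the table. Without both, 7 of 8 members were above 0 with a median of 0.32, and the 5207 genes with means from 5 to 40 had a median of -0.02. In bulk regions such as these, fewer cells of a type and less RNA per cell cannot be told apart. The 95% interval of the log2 change held 0 for the other members and left it out for Spry4.

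**Figure D1:**
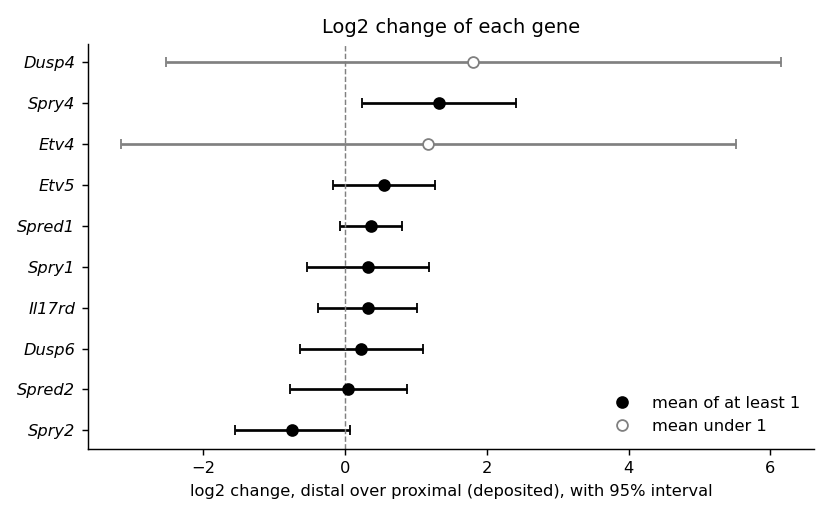
Deposited log2 change of each of the 10 genes (x axis, distal over proximal) with its 95% interval, computed from the deposited standard error. Open points are the 2 genes with a mean under 1. Of the 10 intervals, that of Spry4 alone lies wholly above 0, and Spry2 is the 1 gene with a change below 0.

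The Sprouty genes encode membrane-associated inhibitors that block the signal between receptor and Raf. Spry4 had 7, 5, 5, 4 and 1 counts in distal regions 1 to 5 and 6, 4, 9, 1 and 8 counts in proximal regions 1 to 5. After division by depth these became 8.41, 7.16, 8.95, 7.84 and 3.04 normalized counts in distal regions. The proximal regions had 2.48, 1.81, 4.60, 0.64 and 5.33. Thus 4 of 5 distal regions lay above the highest proximal region, and distal region 5, with a single count, lay among the proximal values. The means were 7.08 ± 2.35 (SD, n = 5) distal and 2.97 ± 1.95 (SD, n = 5) proximal, with p = 0.0238 in a two-sided exact permutation test over regions. The smallest p that 252 splits of 5 against 5 regions allow is 0.00794. The test takes all regions as equally precise, although distal regions were shallower and so carried more counting error. The authors' deposited table puts the log2 change at 1.33 (standard error 0.55, 95% interval from 0.24 to 2.42), a fold of 2.51, with unadjusted p = 0.0164 and adjusted p = 0.531. Spry4 therefore did not pass the test over all genes. It rests on 22 distal and 28 proximal counts. In GRCm38 the gene lies on chromosome 18, at 38586247 to 38601415 on the minus strand.

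Spry2, a paralog that antagonizes several receptor tyrosine kinases, was the 1 member with a negative log2 change. It had 11, 1, 5, 2 and 3 counts in distal regions and 34, 27, 25, 18 and 17 in proximal regions. Normalized counts were 13.2, 1.43, 8.95, 3.92 and 9.13 in distal regions and 14.1, 12.2, 12.8, 11.5 and 11.3 in proximal ones. The proximal regions were close to each other, and 4 of 5 distal regions lay below all of them, while distal region 1 lay within their range. The means were 7.33 ± 4.66 (SD, n = 5) distal and 12.4 ± 1.11 (SD, n = 5) proximal, with p = 0.0397 in the two-sided exact permutation test over regions. This test does not allow for the lower depth of distal regions. The authors' deposited table puts the log2 change at -0.74 (standard error 0.41), with unadjusted p = 0.0737 and adjusted p = 0.991. Leaving out distal region 1 moved the refitted log2 change to -1.22, and leaving out distal region 2 moved it to -0.43 (95% interval -1.28 to 0.41).

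Spry1, which shares the conserved cysteine-rich domain of the family, had 10, 6, 18, 3 and 10 counts in distal regions and 35, 18, 24, 15 and 36 in proximal regions. Normalized counts were 12.0, 8.59, 32.2, 5.88 and 30.4 in distal regions and 14.5, 8.14, 12.3, 9.57 and 24.0 in proximal ones. Distal regions 3 and 5 stood above every proximal region and distal region 4 below all of them, so the distal spread enclosed the proximal one. The means of 17.8 ± 12.5 (SD, n = 5) distal and 13.7 ± 6.24 (SD, n = 5) proximal gave p = 0.508 in the two-sided exact permutation test. The authors' deposited table has a log2 change of 0.32 with a 95% interval from -0.53 to 1.18. Without distal region 3 the refitted change was -0.06.

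The 3 Sprouty genes were also set against each other. Between Spry2 and Spry4, the difference of the changes in the authors' deposited table was -2.07 on the log2 scale, with a standard error of 0.69 and a 95% interval from -3.43 to -0.72. When the interval was widened to cover all 6 paralog pairs compared, it ran from -3.90 to -0.25. This was the 1 pair of 6 whose interval left out 0. Spry1 minus Spry2 was 1.07 (95% interval -0.12 to 2.25), and Spry1 minus Spry4 was -1.01 (95% interval -2.39 to 0.38). These intervals take the 2 changes of a pair as independent, although both come from the same regions.

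A ratio of 2 genes within a region does not depend on the size factor. Of the Spry2 and Spry4 counts together, Spry4 made up 22 of 44 in distal regions, or 50.0% (95% Wilson interval 35.8% to 64.2%). In proximal regions it made up 28 of 149, or 18.8% (95% Wilson interval 13.3% to 25.8%). Both intervals pool the counts of a side and cover counting error only, not the spread between regions. In distal regions 1 to 5 the share was 38.9%, 83.3%, 50.0%, 66.7% and 25.0%. In proximal regions 1 to 5 it was 15.0%, 12.9%, 26.5%, 5.26% and 32.0%. Only distal region 5, with 4 counts of the pair, fell within the proximal range, and p was 0.0238 in a two-sided exact permutation test over regions. This share was chosen after the values of both genes were seen, so its p is not separate evidence. Of the counts of all 3 genes, Spry1 took 51.6% distally and 46.2% proximally. The rest was 24.2% Spry2 and 24.2% Spry4 distally, and 43.7% Spry2 and 10.1% Spry4 proximally.

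**Figure D2:**
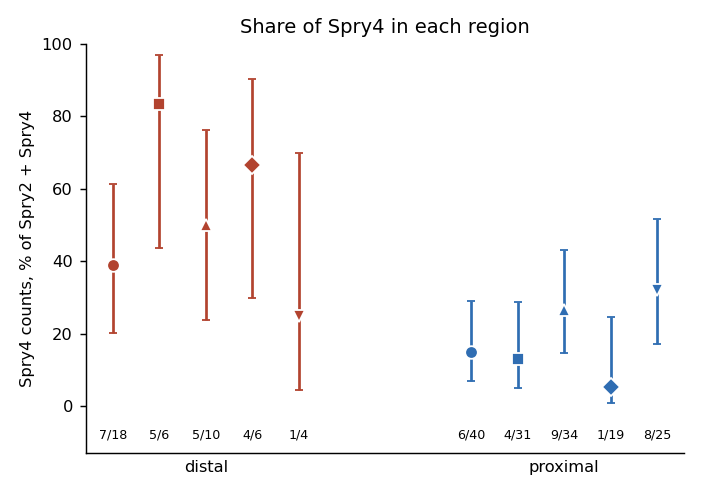
Spry4 counts as a percentage of Spry2 plus Spry4 counts (y axis) in each of 5 distal and 5 proximal regions, with 95% Wilson intervals for counting error. Numbers under the points are Spry4 counts over the counts of both genes; 4 of 5 distal regions lie above the highest proximal share of 32.0%.

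The Spred genes encode relatives of the Sprouty proteins that bring the Ras-inactivating protein neurofibromin to the membrane. Spred1 had the highest mean of the members, 37.3 normalized counts in the authors' deposited table, and its counts by region could not be worked back because that mean was above the limit of 20. Splitting the deposited mean by the deposited change gave levels of 42.0 distal and 32.5 proximal. Its deposited log2 change was 0.37 with the smallest standard error of the 10, 0.23 in the authors' deposited table, where the unadjusted p was 0.101 and the adjusted p was 0.991. Spred2 had 7, 4, 4, 4 and 4 counts in distal regions and 15, 17, 14, 11 and 16 in proximal regions. Its means of 8.26 ± 2.40 (SD, n = 5) distal and 7.74 ± 1.71 (SD, n = 5) proximal overlapped almost wholly, with p = 0.651 in the two-sided exact permutation test. For Spred2 the authors' deposited table has a log2 change of 0.05, with a 95% interval from -0.77 to 0.87, which leaves room for a difference either way. Spred1 minus Spred2 was 0.32 (95% interval -0.61 to 1.25).

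Dusp6 encodes a cytoplasmic phosphatase that removes the activating phosphates of ERK. It had 9, 9, 13, 1 and 12 counts in distal regions and 25, 16, 34, 24 and 28 in proximal regions. Normalized counts were 10.8, 12.9, 23.3, 1.96 and 36.5 in distal regions and 10.3, 7.24, 17.4, 15.3 and 18.6 in proximal ones. The lowest and the highest of all 10 values were both distal, in regions 4 and 5. The means were 17.1 ± 13.2 (SD, n = 5) distal and 13.8 ± 4.84 (SD, n = 5) proximal, with p = 0.635 in the two-sided exact permutation test. The change for Dusp6 in the authors' deposited table was 0.23 on the log2 scale, with a 95% interval from -0.63 to 1.10 and adjusted p = 0.991. Without distal region 5 the refitted change was -0.15. Dusp4, a nuclear phosphatase of the same class, had 2 counts in distal region 3, 2 counts in proximal region 3 and 0 in the other 8 regions. Both sides were under the limit of 3 counts that a count of 0 allows, so no fold is given for Dusp4.

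Etv5 and Etv4 are ETS factors of the PEA3 group, both targets and effectors of FGF signalling in limb mesenchyme. Etv5 had 7, 7, 9, 9 and 4 counts in distal regions and 23, 18, 19, 15 and 8 in proximal regions. Normalized counts were 8.41, 10.0, 16.1, 17.6 and 12.2 in distal regions and 9.51, 8.14, 9.71, 9.57 and 5.33 in proximal ones. Distal regions 2 to 5 lay above the highest proximal region, the closest by a small margin, and distal region 1 lay among the proximal values. The means of 12.9 ± 3.93 (SD, n = 5) distal and 8.45 ± 1.86 (SD, n = 5) proximal gave p = 0.0556 in the two-sided exact permutation test. In the authors' deposited table Etv5 has a log2 change of 0.55 (standard error 0.36), with unadjusted p = 0.131 and adjusted p = 0.991. Etv4 had 1 count in distal region 1 and 1 each in proximal regions 3 and 4. That is under the limit of 3 counts on both sides, so a difference in Etv4 was not detectable at this depth.

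Il17rd encodes Sef, a transmembrane inhibitor that binds FGF receptors and holds back ERK. It had 12, 11, 6, 5 and 6 counts in distal regions and 23, 23, 27, 9 and 23 in proximal regions. Normalized counts were 14.4, 15.8, 10.7, 9.80 and 18.3 in distal regions and 9.51, 10.4, 13.8, 5.74 and 15.3 in proximal ones. The groups overlapped over most of their range. The means of 13.8 ± 3.52 (SD, n = 5) distal and 11.0 ± 3.76 (SD, n = 5) proximal gave p = 0.230 in the two-sided exact permutation test. In the authors' deposited table the log2 change was 0.32, with a 95% interval from -0.38 to 1.02. Over the 7 members tested by permutation, p-values are unadjusted and regions of a side share a library. These p-values rest on the spread between regions only, and that spread holds more counting error at the lower distal depth.

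**Figure D3:**
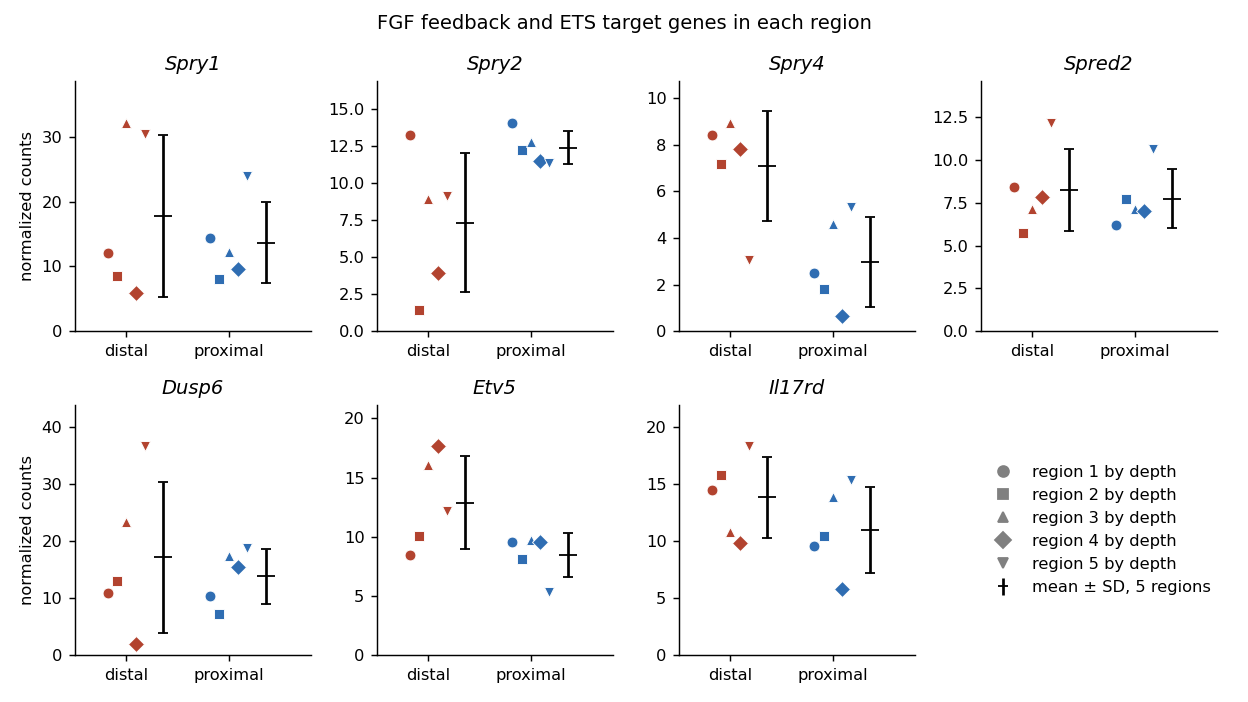
Normalized counts (y axis) of the 7 genes with more than 3 counts on each side, in 5 distal (red) and 5 proximal (blue) regions, with symbols for the region's rank by depth and black bars for mean ± SD. Spry4 and Etv5 have 4 of 5 distal regions above all proximal ones, Spry2 has 4 of 5 below, and the distal points of Spry1 and Dusp6 are the most scattered.

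Dusp6 and Spry1 had a higher fitted dispersion than nearly all genes of similar mean. Dispersion, the variance beyond counting error relative to the squared mean, is implied by the standard error in the authors' deposited table, and it was 0.161 for Dusp6 and 0.160 for Spry1. It is a fitted value of the authors' model and not a spread measured over the regions. Among 1098 genes with means from 13 to 20 the median was 0.0507, and 9 genes (0.820%) were above Dusp6 and 10 genes (0.911%) above Spry1. For 5 other members the share of genes above was larger, and Spred1, Dusp4 and Etv4 were not set against genes of similar mean. Of genes with means from 7.5 to 13, 61.8% were more dispersed than Spred2, 67.2% than Spry2, 70.3% than Il17rd and 81.1% than Etv5, and of genes with means from 4 to 6.5, 35.0% were more dispersed than Spry4.

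Dusp6 and Spry1 were also the most alike of the 21 pairs of members over regions. With each value divided by the mean of its side, Pearson's r between Dusp6 and Spry1 was 0.81 and Spearman's rho 0.83 over 10 regions. Without the 2 regions farthest from the median of Spry1 r was 0.89, within distal regions it was 0.89 and within proximal regions 0.60. Both genes were lowest in region 4 of the distal side and region 2 of the proximal side, but the highest distal region was 5 for Dusp6 and 3 for Spry1, and proximal regions 1, 3 and 4 lay on opposite sides of the mean of their side for the 2 genes. Over all 21 pairs of the 7 members the median r was 0.24, and 13 pairs were positive. Etv5 and Il17rd had the most negative value, an r of -0.64. Regions share the libraries, and each value shares its region's size factor with the other genes. Dusp6, Spred2 and Il17rd were highest in the shallowest region of both sides. Spearman's rho of the relative level with the inverse size factor, also relative to its side, was 0.54 for Dusp6, 0.50 for Spred2, 0.39 for Spry1 and 0.18 for Il17rd over the 10 regions.

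Genes listed for the ERK early response, many of which are transcribed within minutes of ERK activation without new protein synthesis, were set beside Dusp6 in the same way. Egr1, a zinc-finger factor, had 1, 5, 13, 0 and 4 counts in distal regions 1 to 5, with an r of 0.57 with Dusp6. Ier2 had 12, 11, 17, 5 and 10 counts in the same regions, with an r of 0.70. Distal region 4 was the lowest of its side for Egr1 and Ier2, as for Dusp6 and Spry1, but only for these 2 of the 7 early response genes compared. Within proximal regions r with Dusp6 was lower, 0.40 for Egr1 and 0.14 for Ier2. Phlda1 had the highest r with Dusp6 of the 7, 0.699 over the 10 regions, but was lowest in distal region 2. Myc and Fosl2 went the other way, with an r of -0.31 and -0.24. The median r with Dusp6 was 0.30 for the 7 early response genes (from -0.31 to 0.70) and 0.28 for the 5 other members. For 6 genes of a list called other feedback inhibitors, Flrt3 among them, it was 0.03 (from -0.58 to 0.62). It was 0.21 for 2 FGF ligands and receptors, -0.21 for 14 genes of the relay from receptor to ERK and -0.31 for 11 other ETS factors. Single genes outside the members spanned from -0.86 to 0.82, and the highest was Ets1, an ETS factor, at 0.82. The likeness of Dusp6 and Spry1 is therefore within the range of these 45 genes and is a description of these 10 regions.

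**Figure D4:**
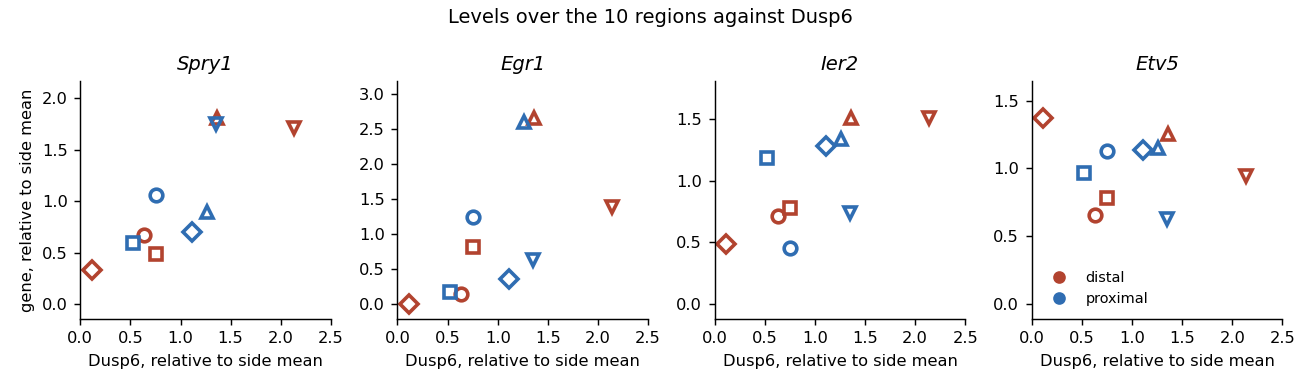
Level of Spry1, Egr1, Ier2 and Etv5 (y axes) against Dusp6 (x axis) in each of 10 regions, each relative to the mean of its side, with distal regions in red, proximal in blue and symbols for the rank by depth as in the plot of members by region. Spry1 is higher in regions where Dusp6 is higher (r 0.81), and Etv5 is not (r -0.16).

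Other genes of the pathway, listed by role, were read from the authors' deposited table. From a list called other feedback inhibitors, 14 genes had a line in it. Of these, 1 passed an adjusted p of 0.05, in the proximal direction, against 0.582% of all genes. It was Flrt2, a membrane protein of the family of the FGF receptor partner Flrt3, for which the authors' deposited table has a log2 change of -2.24 (adjusted p = 2.62e-08). The name of the list is loose, since it also holds this family, and the call of Flrt2 is not the call of an inhibitor. Errfi1, an inhibitor of EGF receptors, stands at 0.73 on the log2 scale in the authors' deposited table, where the unadjusted p was 0.0401 and the adjusted p was 0.840. Pebp1, which binds Raf, and Fgfrl1, a receptor without a kinase domain, had the highest means of the list and log2 changes of 0.09 and 0.14.

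Of 14 ERK early response genes, 2 passed in the proximal direction and 0 in the distal one, against 0.582% and 0.395% of all genes. In the authors' deposited table Jun, an AP-1 subunit, had a log2 change of -0.81 (adjusted p = 0.00936) and Phlda1 had -1.33 (adjusted p = 0.00617). For Ier2 the authors' deposited table has 0.98 on the log2 scale (unadjusted p = 0.0112, adjusted p = 0.436). The log2 changes of the list were positive for 7 genes and negative for 7, with a median of 0.01, and the median was 0.23 over the 10 genes with a mean of 1 or more, which is the bar in the plot of pathway genes.

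Upstream of the members, 0 of 9 FGF ligands and receptors, 0 of 23 relay genes and 0 of 15 other ETS factors with Cic passed in the authors' deposited table. The share over all genes was 0.977%. None of these genes had an unadjusted p under 0.05, against 6.07% of all genes. Fgfr1 and Fgfr2, which encode the main FGF receptors of limb mesenchyme, had log2 changes of -0.11 and -0.01 there. Among the ligands listed, Fgf4 and Fgf8 have no line in the table, while Fgf9 and Fgf17 have lines with means of 1.53 and 0.04. The adaptor gene Shc1 had a log2 change of 0.20. Ets2 had 0.32, and Cic, a repressor of Etv4 and Etv5 that ERK relieves, had -0.29. The medians of these 3 lists were -0.01, 0.16 and 0.02, against 0.35 for the members and 0.07 for all genes.

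**Figure D5:**
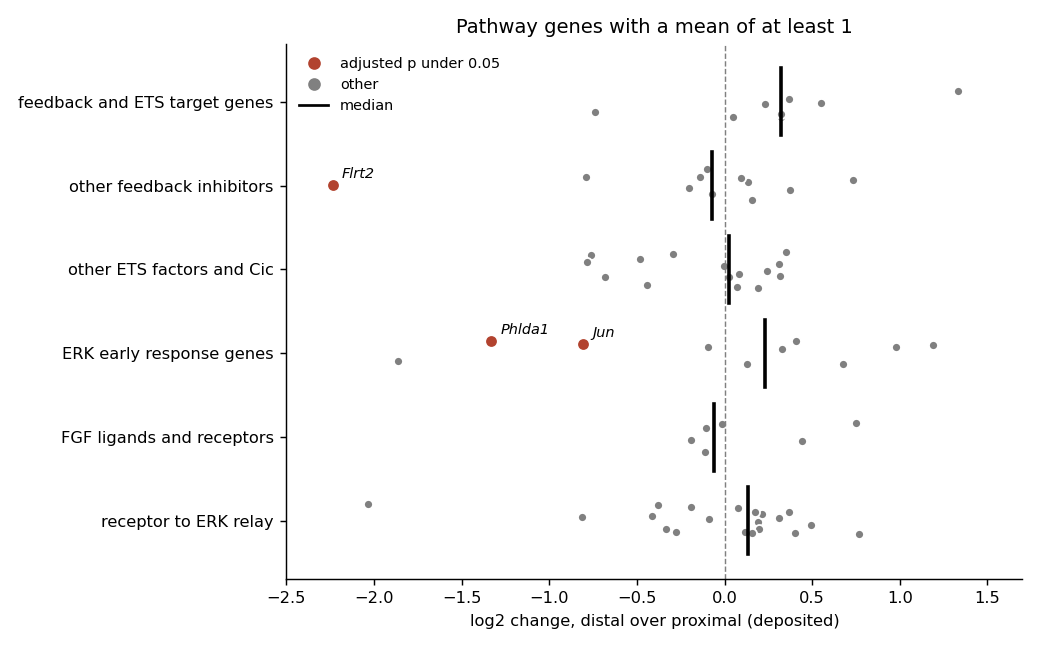
Deposited log2 change (x axis, distal over proximal) of genes whose mean was 1 or more, for the feedback and ETS target genes and in 5 other lists of the pathway, with the median of each list as a black bar. The 3 genes past an adjusted p of 0.05 (red) are Flrt2, Phlda1 and Jun, all on the proximal side; vertical scatter within a list has no meaning.

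The labelled cell type was checked on markers in the authors' deposited table. Prrx1, a limb mesenchyme factor, had a mean of 159 and 8 of 8 mesenchyme markers had a line. Pdgfra and Tbx5, also mesenchyme markers, were higher in proximal regions with log2 changes of -0.86 and -1.41, while Lhx9 stood at 0.51 (unadjusted p of 0.0141, adjusted p of 0.499). Sox9, the cartilage-lineage factor, was higher in distal regions (log2 change 0.69). Of the other cartilage genes with a line, Col2a1 at 0.57 and Col9a1 at 0.14 did not pass, nor did Acan at -1.57 (unadjusted p of 0.0345, adjusted p of 0.790). Muscle genes moved with the side: Actc1, Myog and Tnnt1 passed of 7 listed, against 0.582% of all genes in the proximal direction. Myod1 and Myf5 reached an unadjusted p of 0.0266 and 0.0196 only. Actc1 had a log2 change of -3.11, and the list's summed level was 10.4 distal and 95.3 proximal. The part of these cells in the members' values was not tested. Surface ectoderm markers, of which 4 of 7 had a line, summed to a mean of 0.81, led by Epcam at 0.57, and Krt5, Krt8 and Krt18 had none. Endothelial markers summed to 1.05 with 3 of 4 present, led by Cdh5 at 0.59, and the 1 of 5 blood markers present, Ptprc, had a mean of 0.64.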

How the data were processed

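Poly(A) RNA from 2 libraries of Slc:ICR organoid regions was sequenced by the authors. Per the file headers, the deposited table holds a mean in normalized counts (a signal averaged by the authors over all regions), a fitted log2 change with its standard error, the ratio of both as a test score, and raw and adjusted p-values, all computed by the authors. The builds mm10 and GRCm38 are in the submitters' processing notes, and the aligner, the counter and the use of strand are not given in the sources used here. Calls use the deposited adjusted p under 0.05, and the 95% intervals use the deposited standard error.

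Size factors of the 10 regions were read from the means of genes with 1 count in 1 region and refined on 1069 means. For each member with a mean up to 20, all sets of whole counts with the deposited mean were searched, up to a Pearson sum of 30 per side, and refitted with a negative binomial model. A set was kept only if it was the single one that gave the deposited log2 change within 7e-10. The side of each region was the assignment under which the refit gave the deposited changes. All 3499 genes with means under 0.6 had 1 set, and their refit matched within 1e-06. On simulated data, 39 of 39 genes were recovered with no wrong set. No table of counts was used, so these counts are derived values. Approximate totals were 46991 to 118978 counts per distal region and 214774 to 345649 per proximal region. Intervals and floors (3 counts) cover counting error only.

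The members and the lists were chosen with earlier results of these data known. Named genes are all members, those of each pathway list with a deposited adjusted or unadjusted p under 0.05 or the 2 highest means, and those of each marker list with an adjusted p under 0.05 or the highest mean. Other genes named, among them Egr1, Ets1, Lhx9 and Acan, were added after their values were seen. A gene named by this rule is not reported here. Alternatives were other thresholds and adjustment over fewer genes, centring on all genes, leaving out regions, pooled counts and permutation over regions. Of these, leaving out the shallowest region of each side and the median over members with more than 3 counts on each side were chosen after seeing the data. So were the Spry4 share, the GGAA search and the counts of other pathway genes. The comparison of dispersions and the correlations over regions were not planned beforehand either. Of 44 pathway genes with means from 1 to 20, 40 gave a single set of counts and 4 gave none. Python 3.11.15, numpy 2.4.6, scipy 1.17.1 and numba 0.67.0 were used.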

Additional observations from a re-analysis of the deposited data

How the results depend on the processing

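The members called at an adjusted p of 0.05 stayed at 0 at adjusted thresholds of 0.01 and 0.1 and with the p-values adjusted over the genes in the table or over those with a mean of at least 10. The count became 1 at an unadjusted p under 0.05, and the list called other feedback inhibitors, which includes Flrt2, went from 1 to 2. Centring on the median of all genes gave Spred2 -0.018, and leaving out the shallowest region of each side gave Dusp6 -0.022. Leaving out 1 region at a time gave -0.055 to 0.61 for Spry1 (below 0 without distal region 3), -0.15 to 0.52 for Dusp6 (below 0 without distal region 5) and -0.068 to 0.18 for Spred2 (below 0 without distal region 5 or proximal region 1). The range was 1.10 to 1.60 for Spry4, whose 95% interval reached 0 only without proximal region 4, -1.22 to -0.43 for Spry2, 0.41 to 0.71 for Etv5 and 0.17 to 0.45 for Il17rd. The median of the members was 0.28 to 0.37 over its alternatives. The Spry2 interval left out 0 without distal region 1 alone of the 10 regions. No paired analysis was possible because each side has 1 library and the region numbers of the labels are not tied to the counts. Depth limits Dusp4 and Etv4, with 4 and 3 counts in all, and the distal values of every member, since distal regions hold 23.3% of the summed size factors.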
